A study of Mus musculus with 18 samples.

Results

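The genes described here are the 39 mouse genes that write, erase and read histone acetylation: 13 acetyltransferases, 11 zinc-dependent deacetylases, 7 sirtuins and 8 bromodomain readers. They were chosen by name, not by their values, from a deposited table of 45703 genes. Of the 39, 37 passed the filter on low values, a TPM (transcripts per 1000000 transcripts, a level scaled to gene length and library size) of at least 1 in at least 3 of 18 libraries, and were tested. Hdac9 stayed at or below 0.192 TPM in every library, and Hdac11 lay between 0.0598 and 1.06 TPM with 1 library above 1, so both were left untested. Of the tested members, Hdac8 and Sirt4 reached 1 TPM in the fewest libraries, 16 each.

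Polyadenylated RNA was sequenced from mouse Th17 cells, CD4+ T cells grown in vitro from naive precursors under conditions that favour interleukin-17 production. WT cells came from wild type mice, GLUT3KO cells from Slc2a3-fl/fl Cd4-cre mice, designed to lack the glucose transporter GLUT3 in T cells, and ACLYKO cells from Acly-fl/fl Cd4-cre mice, designed to lack ATP-citrate lyase, the enzyme that makes cytosolic acetyl-CoA from citrate. Cd4-cre is active in T cells from the thymus onward. Each genotype was grown without and with acetate, with 3 libraries in each of the 6 groups. Acetate was added for the 24 h that followed 48 h of differentiation, at 20 mM per the labels' protocols and 10 mM per the series description. All cells, controls included, received anti-CD3/CD28 and were restimulated for 5 h with PMA, ionomycin, brefeldin A and monensin. The background is labelled C57BL/6 for 12 libraries, and the label carries another number after the slash for 6, of which 5 are ACLYKO. Ages, sexes and whether replicates came from separate mice are not stated in these sources. The p-values then measure only how far these libraries spread, which may be technical.

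Acetyltransferases move the acetyl group of acetyl-CoA onto lysines of histones and other proteins, deacetylases of the HDAC family remove it with a zinc ion, and sirtuins remove it while consuming NAD+. Bromodomain proteins bind the acetylated lysines and bring chromatin remodellers, acetyltransferase complexes or the transcription machinery to them. Cytosolic acetyl-CoA is made from citrate by ATP-citrate lyase or from acetate by acetyl-CoA synthetases, and activated T cells are a common setting in which the link between that pool and histone acetylation is studied.

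The deposited values gave between 18.7 M and 30.1 M reads per library (M for 1000000 reads; median 23.3 M). The targeted genes were checked first. Slc2a3 had 17.7 ± 2.91 TPM in WT and 6.17 ± 2.10 TPM in GLUT3KO (SD, n = 3), and Acly had 395.7 ± 4.27 TPM in WT and 11.3 ± 3.85 TPM in ACLYKO (SD, n = 3). Neither was level in the other knockout: Slc2a3 had 10.2 ± 3.91 TPM in ACLYKO, overlapping GLUT3KO, and Acly had 679.0 ± 65.8 TPM in GLUT3KO (SD, n = 3). All 6 T cell and all 5 Th17 markers listed reached 1 TPM in every group, but their sums moved with the groups. The Th17 sum was 1374 to 1578 TPM in WT, 318.9 to 395.9 TPM in GLUT3KO and 389.4 to 509.9 TPM in ACLYKO, and with acetate 3117 to 4126, 2237 to 2603 and 1072 to 1298 TPM. The T cell sum was 2337 to 2357 TPM in WT, 3709 to 4077 TPM in GLUT3KO and 1520 to 1629 TPM in ACLYKO. The part of these shifts in the results below was not tested. The summed level of the 4 B cell markers was 0.226 to 5.59 TPM, that of the 6 myeloid markers 1.29 to 9.53 TPM with C1qa at 0 in all 6 groups, and that of the 2 CD8 markers 3.98 to 19.9 TPM. Libraries of a group spread along 1 component that held 63.55% of the variance within groups, with scores from -0.40 (ACLYKO replicate 3) to 0.67 (ACLYKO replicate 1). The 5 highest scores, 0.67 to 0.03, belonged to replicate 1 of ACLYKO, WT, GLUT3KO and ACLYKO with acetate and to replicate 3 of GLUT3KO. These 5 libraries, which an earlier analysis of these data set aside, are left out together in 1 alternative. They are not the 5 farthest from their groups: GLUT3KO replicate 2, at -0.27, is kept and GLUT3KO replicate 3, at 0.03, is not. That alternative leaves GLUT3KO without acetate 1 library, replicate 2, whose spread is taken to equal that of the remaining groups. Genes moved along it by exon length (Spearman's rho of 0.35 across genes) and by GC content (rho of -0.429 across genes), as a description over genes that share the libraries. The 37 tested members have a median exon length of 5070 bases, against 2835 for all 14229 tested genes. The part of this component in the results below was not tested apart from the values given with and without it.

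The deacetylase gene Sirt1 and the reader gene Brpf3 fell with acetate in all 3 genotypes, and their promoters are shown for that reason. Each sequence holds the 250 bases before the annotated start site on the gene's strand, from RefSeq on GRCm38.p6, with capitals at matches on either strand to CACGTG (the E-box) or GGGCGG (the GC box). The Sirt1 promoter is chr10:63339036-63339285 on the minus strand and the Brpf3 promoter is chr17:28800876-28801125 on the plus strand.
Sirt1: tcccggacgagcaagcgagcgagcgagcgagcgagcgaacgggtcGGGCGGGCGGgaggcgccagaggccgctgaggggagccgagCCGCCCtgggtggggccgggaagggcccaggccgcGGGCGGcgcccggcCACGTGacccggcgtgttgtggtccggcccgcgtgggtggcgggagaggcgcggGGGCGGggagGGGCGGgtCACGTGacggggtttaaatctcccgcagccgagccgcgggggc
Brpf3: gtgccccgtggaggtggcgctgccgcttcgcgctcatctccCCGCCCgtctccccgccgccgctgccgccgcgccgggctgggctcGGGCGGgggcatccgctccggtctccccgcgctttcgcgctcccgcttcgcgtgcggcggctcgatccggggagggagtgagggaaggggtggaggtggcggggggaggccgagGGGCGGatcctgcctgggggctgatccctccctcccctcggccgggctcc
The Sirt1 stretch held 2 E-boxes, beginning 115 and 43 bases before the start site, and 6 GC boxes, and the Brpf3 stretch held 3 GC boxes and no E-box. Of all 32851 promoter windows of that length, 6.0% held an E-box and 32.7% a GC box, and some GC boxes in the Sirt1 sequence overlap each other. The 2 stretches were rich in G and C, at 79.2% and 78.8%. Other motifs searched on both strands had no match in either stretch. They were the cAMP response element TGACGTCA (in 1.5% of windows), the AP-1 site TGANTCA (in 6.7%), the CCAAT box (in 33.8%) and the ETS site CCGGAAG (in 6.9%). Such matches are letters in a window and were not tested as binding sites. A promoter was given for 32 of the 39 members.

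By their median level over the 18 libraries, the order ran from Hdac1 (174.5 TPM), Hdac2 (170.2 TPM), Sirt2 (161.3 TPM) and Brd2 (101.8 TPM) down to Sirt5 (3.80 TPM), Sirt4 (2.10 TPM) and Hdac8 (1.35 TPM). Hdac1 and Hdac2, the catalytic subunits shared by the Sin3, NuRD and CoREST complexes, had overlapping ranges of 124.3 to 302.2 TPM and 94.3 to 293.9 TPM. Among the acetyltransferases the leading genes were Hat1, which acetylates newly made histone H4, at 74.6 TPM, and the nuclear receptor coactivator Ncoa3 at 53.2 TPM. The widest spread among tested members, from 0.385 to 8.82 TPM, belonged to Sirt3, and the narrowest ratio of highest to lowest library, 1.66, to Kat7. Libraries grown without acetate varied more: the median coefficient of variation over the 37 members was 18.5% in WT, 16.1% in GLUT3KO and 39.8% in ACLYKO, against 5.0%, 6.0% and 22.1% with acetate. In ACLYKO with acetate, replicate 1 was the highest library for 33 of the 37 members. Levels are per unit of total RNA, so fewer cells with a transcript and less of it per cell cannot be told apart.

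Each group was compared with a model fitted to all genes (limma on log2(TPM + 1), with p-values adjusted over the 14229 tested genes), and a change was called at an adjusted p under 0.05. Changes are differences on that log2 scale, while the folds given beside them are ratios of mean TPM, without the added 1, and so can differ from the log2 value. Under GLUT3 loss 9 members rose and 1 fell, 10 of 37, beside 33.4% of all tested genes called in that comparison (24.9% higher, 8.47% lower). Under ACLY loss 4 rose and 1 fell, beside 19.1% of all tested genes (12.7% higher, 6.38% lower). Acetate lowered 2 members in WT and raised none, beside 6.5% of all tested genes (4.22% higher, 2.28% lower). In GLUT3KO it lowered 7 and raised none, beside 12.7% (4.86% higher, 7.89% lower). In ACLYKO acetate raised 4 and lowered 3, beside 17.3% of all tested genes (11.7% higher, 5.6% lower). The members' share called was 27.0% and 13.5% for the losses and 5.41% for acetate in WT, each below its background. It was 18.9% for acetate in GLUT3KO, above its background, and 18.9% in ACLYKO, near it. These differences amount to few genes among 37. Leaving out each library in turn gave 2 to 12 members called for acetate in GLUT3KO, so that share does not show an excess over other genes. The median change of the members was 0.44 under GLUT3 loss and 0.05 under ACLY loss on the log2 scale, beside 0.17 and 0.03 over all tested genes. With acetate it was -0.24 in WT, -0.47 in GLUT3KO and -0.14 in ACLYKO, beside -0.02, -0.07 and 0.10 over all tested genes. Both losses are measured against the same WT libraries, and each acetate comparison shares its untreated libraries with a loss, so these counts are not independent. In all, 19 tested members were called in at least 1 of these 5 comparisons and 18 in none. Scaling by median ratios in place of TPM moved the median of all tested genes under GLUT3 loss from 0.17 to -0.01 and the members called there to 6 higher and 3 lower. It moved the higher share of all calls from 74.6% to 54.9% under GLUT3 loss, from 66.6% to 54.8% under ACLY loss, from 38.1% to 57.5% for acetate in GLUT3KO and from 67.6% to 56.6% for acetate in ACLYKO. The members' calls then became 4 higher and 2 lower, 2 higher and 3 lower, and 4 higher and 4 lower in the last 3 of these. The share of all tested genes called under that scaling is not given here. These member counts therefore do not show whether the members changed more often than other genes.

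Counted by libraries that do not overlap, 10 members lay higher and 3 lower in GLUT3KO than in WT, beside 31.2% and 14.2% of all tested genes. In ACLYKO 5 lay higher and 1 lower, beside 16.1% and 10.8%. With acetate 5 lay higher and 17 lower in WT, beside 19.2% and 22% of all tested genes, and 5 higher and 23 lower in GLUT3KO, beside 16.3% and 28.3%. In ACLYKO the numbers were 6 and 3, beside 18.7% and 9.09%. So in WT and GLUT3KO many more members were separated downward by acetate than passed the test. The same held for all tested genes, of which 2.28% and 7.89% were called lower.

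**Figure D1:**
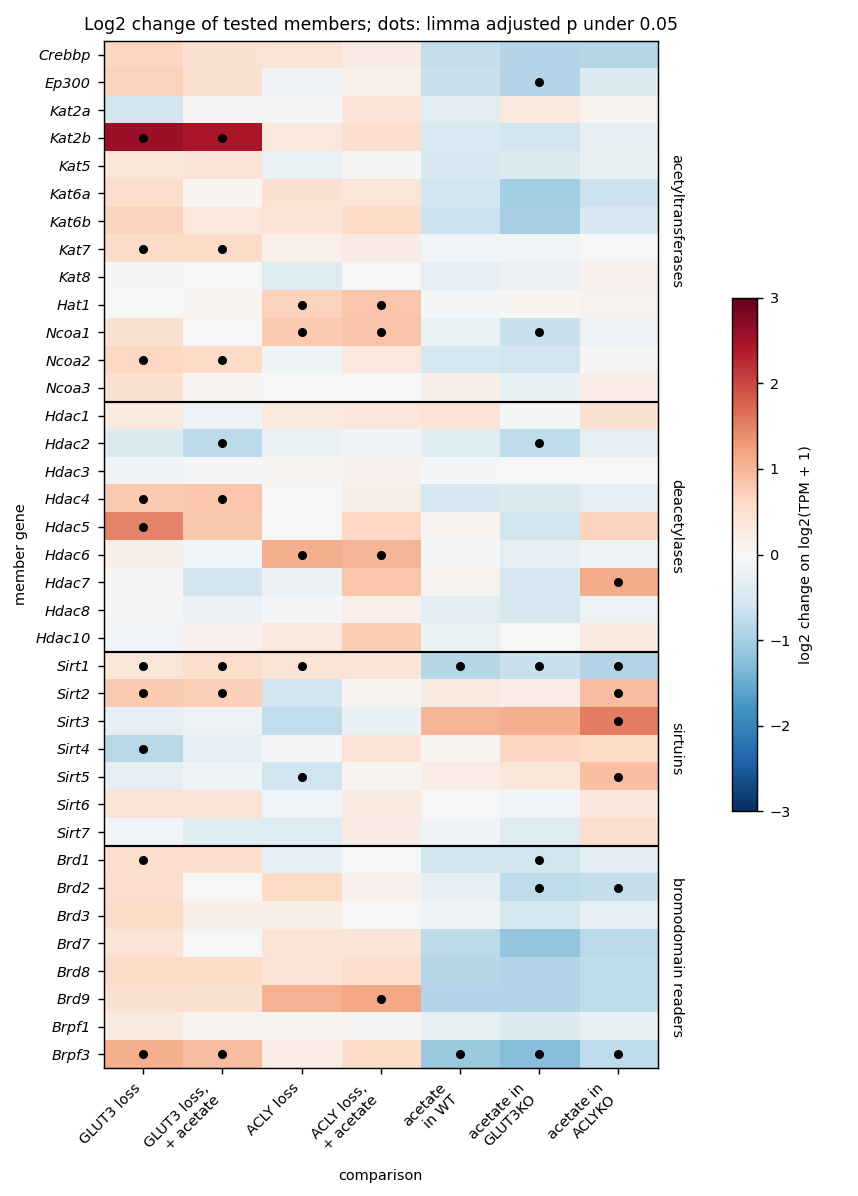
Log2 change of the 37 tested members (rows, grouped by family) in 7 comparisons (columns), each the first group minus its control, with red for higher and blue for lower and a black dot where limma's adjusted p was under 0.05. Kat2b has the deepest red under GLUT3 loss, at 2.60, and the rows of the 8 readers are blue in all 3 acetate columns.

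The acetyltransferase most changed by loss of GLUT3 was Kat2b, the PCAF enzyme that acetylates histone H3 within the ATAC and PCAF complexes (chr17:53566774-53672721, GRCm38.p6). Kat2b had 11.3, 6.33 and 8.78 TPM in the WT libraries, 58.1, 53.6 and 59.3 TPM in GLUT3KO, and 16.8, 9.17 and 8.47 TPM in ACLYKO. With acetate it had 5.76, 5.59 and 6.79 TPM in WT, 34.5, 40.5 and 38.0 TPM in GLUT3KO, and 11.8, 7.61 and 7.86 TPM in ACLYKO. Every GLUT3KO library was above every WT and ACLYKO library in either medium. Under GLUT3 loss Kat2b rose by 2.60 ± 0.24 (log2, SE; 6.49-fold; limma adjusted p = 1.085e-06), and with acetate present the difference from WT was 2.46 ± 0.24 (limma adjusted p = 1.984e-06). Both calls held in every alternative tried, with changes of 2.18 to 2.78 and 2.19 to 2.62. Acetate in GLUT3KO gave a Kat2b change of -0.59, which passed the test when the replicate number was a block (limma adjusted p = 0.0478) and not without it.

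Kat7, also called HBO1, acetylates histone H3 and H4 in complexes that contain the BRPF or JADE scaffolds. It had 35.4 to 40.9 TPM in WT, 57.5 to 58.2 TPM in GLUT3KO and 42.3 to 43.8 TPM in ACLYKO, with no overlap between GLUT3KO and WT. It rose by 0.57 ± 0.10 under GLUT3 loss (log2, SE; limma adjusted p = 0.000404) and by 0.57 ± 0.10 when both had acetate (limma adjusted p = 0.000424). Correcting each library for its trend with exon length left 0.12 of the first change (limma adjusted p = 0.347), and the second was called throughout.

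Ncoa2, a p160 coactivator that recruits CBP and p300 to nuclear receptors, had 11.2, 7.19 and 7.68 TPM in WT and 15.3, 11.5 and 14.5 TPM in GLUT3KO. ACLYKO had 9.01, 7.83 and 6.34 TPM. With acetate the levels were 5.56, 5.58 and 5.60 TPM in WT, 9.32, 8.92 and 8.22 TPM in GLUT3KO and 9.53, 6.18 and 6.44 TPM in ACLYKO. GLUT3KO lay above WT without overlap in both media. Ncoa2 rose by 0.62 ± 0.19 under GLUT3 loss (log2, SE; limma adjusted p = 0.0176) and was 0.58 ± 0.19 higher with acetate (limma adjusted p = 0.0284). With 25972 bases it has a long exon length, and after correction for length the untreated change was -0.09 (limma adjusted p = 0.451), opposite in sign. The call under GLUT3 loss was also lost with median-ratio scaling (0.43, adjusted p = 0.108) and without any one of WT replicates 2 or 3 or GLUT3KO replicates 1 or 3, with adjusted p of 0.0611 to 0.0871. With acetate it was lost without any one of the 6 libraries except GLUT3KO acetate replicate 3 (adjusted p of 0.0709 to 0.0876). Over all 17 alternatives for that comparison, 9 missed the threshold. The change went down to 0.14 and the limma adjusted p up to 0.247.

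Hat1 and Ncoa1 were the acetyltransferases that rose with loss of ACLY. Hat1 (chr2:71389260-71441622, GRCm38.p6) had 71.2, 63.9 and 73.4 TPM in WT, 67.4, 73.3 and 69.3 TPM in GLUT3KO, and 130.7, 106.9 and 103.7 TPM in ACLYKO. With acetate it had 65.2, 64.2 and 75.8 TPM in WT, 57.2, 78.2 and 84.7 TPM in GLUT3KO, and 125.5, 119.0 and 121.0 TPM in ACLYKO. All 6 ACLYKO libraries were above the 12 others. The change was 0.70 ± 0.15 without acetate (log2, SE; 1.64-fold; limma adjusted p = 0.0038) and 0.83 ± 0.15 with it (limma adjusted p = 0.00171). A pseudogene, Gm13642, overlaps Hat1 by 1162 bases on the other strand and had a mean of 18.1 TPM (no source used here gives the strand setting of the counting).

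Ncoa1, the founding p160 coactivator, had 17.8, 10.9 and 13.1 TPM in WT, 19.5, 16.6 and 21.8 TPM in GLUT3KO, and 22.2, 28.1 and 23.4 TPM in ACLYKO. In acetate medium the levels were 11.2, 11.7 and 12.2 TPM in WT, 12.0, 12.1 and 11.1 TPM in GLUT3KO, and 29.9, 17.3 and 20.6 TPM in ACLYKO. ACLYKO stood above WT without overlap in both media, while WT and GLUT3KO overlapped with each other. Ncoa1 rose by 0.79 ± 0.20 with loss of ACLY (log2, SE; limma adjusted p = 0.0101), and was 0.86 ± 0.20 higher with acetate (limma adjusted p = 0.00832). The first call was lost without WT replicate 2 (0.64, limma adjusted p = 0.0601). When only ACLYKO and WT were fitted, it was 0.79 with an adjusted p of 0.168, and no member passed. Acetate lowered Ncoa1 in GLUT3KO by -0.67 ± 0.20 (limma adjusted p = 0.0369), a call lost with the replicate number as a block (adjusted p = 0.0758) and on leaving out any one of 5 of the 6 libraries compared, the exception being GLUT3KO replicate 2 (adjusted p of 0.0847 to 0.145 for the others).

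Ep300 and its paralog Crebbp encode p300 and CBP, the acetyltransferases of active enhancers. Ep300 had 50.6, 29.2 and 31.5 TPM in WT, 74.3, 44.0 and 61.4 TPM in GLUT3KO, and 45.6, 32.5 and 25.1 TPM in ACLYKO. Acetate-treated libraries had 20.1, 23.8 and 23.3 TPM in WT, 34.5, 30.9 and 28.3 TPM in GLUT3KO, and 34.9, 19.3 and 23.3 TPM in ACLYKO. In WT and GLUT3KO every acetate library was below every untreated one, and in ACLYKO the groups overlapped. Acetate lowered Ep300 in GLUT3KO by -0.89 ± 0.27 (log2, SE; limma adjusted p = 0.042), with -0.48 and an adjusted p of 0.0514 once the 5 libraries were left out, where GLUT3KO replicate 2 alone stands for the untreated cells, and -0.72 and 0.179 without GLUT3KO replicate 1. Leaving out GLUT3KO replicate 3 or any acetate library of the pair of groups ended the call as well, with adjusted p of 0.077 to 0.132. Crebbp had changes of -0.70, -0.88 and -0.84 with acetate in WT, GLUT3KO and ACLYKO, none of which passed the test. With the replicate block it passed in GLUT3KO (adjusted p = 0.0452) and in ACLYKO (adjusted p = 0.0455).

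Of the 13 acetyltransferases, 3 rose and none fell with loss of GLUT3, 2 rose with loss of ACLY, and acetate lowered 2, both in GLUT3KO. These are 23.1%, 15.4% and 15.4% of the family, beside 33.4%, 19.1% and 12.7% of all tested genes. The median change under GLUT3 loss was 0.54 on the log2 scale and 0.02 after correction for length. Acetate gave a negative change in 12 of the 13 in WT, 11 in GLUT3KO and 8 in ACLYKO, most of them short of the threshold. Over all 14229 tested genes the change was positive for 6809, 6290 and 8199 in turn. Kat2a, Kat5, Kat6a, Kat6b, Kat8, Crebbp and Ncoa3 were called in none of the 5 comparisons. Kat6a showed how replicate 1 stood out, with 70.0, 31.4 and 30.2 TPM in WT and 105.8, 48.4 and 34.5 TPM in ACLYKO.

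**Figure D2:**
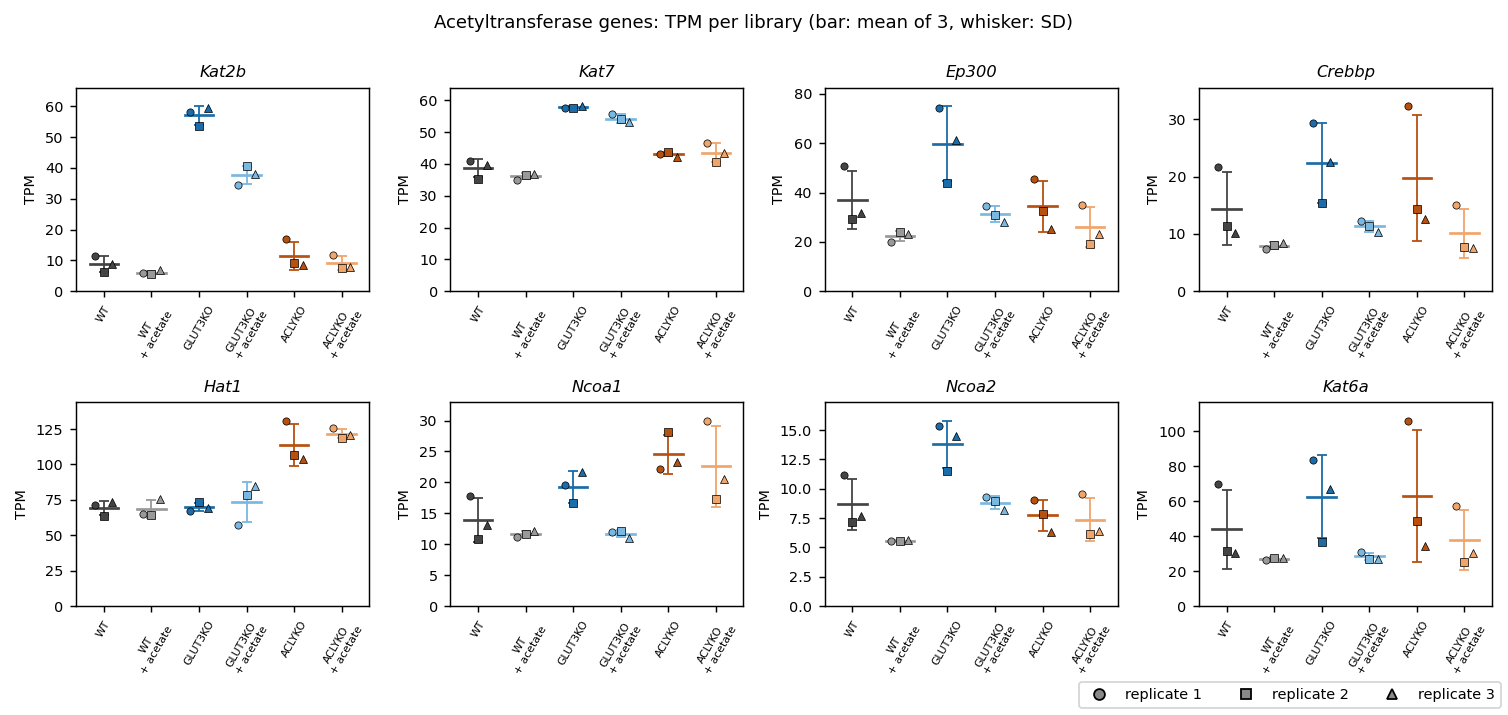
TPM of 8 acetyltransferase genes in each library (vertical axis, linear from 0) by group (horizontal axis), with the marker shape giving the replicate number, the bar the mean of 3 and the whisker the SD. Kat2b lies between 34.5 and 59.3 TPM in GLUT3KO and at 16.8 TPM or below in all other libraries, and Hat1 lies above 100 TPM only in ACLYKO.

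Among the deacetylases, the class IIa genes Hdac4 and Hdac5 rose with loss of GLUT3. Class IIa enzymes shuttle between nucleus and cytoplasm and act largely as scaffolds for repressor complexes on MEF2 sites. Hdac5 (chr11:102195747-102230172, GRCm38.p6) had 6.79, 6.02 and 6.87 TPM in WT, 18.8, 20.3 and 21.2 TPM in GLUT3KO, and 2.72, 9.78 and 9.52 TPM in ACLYKO. With acetate the values were 7.08, 6.90 and 6.88 TPM in WT, 11.7, 13.9 and 13.0 TPM in GLUT3KO, and 15.2, 9.08 and 9.99 TPM in ACLYKO. GLUT3KO libraries were all above WT in both media, and ACLYKO replicate 1 was the lowest of the 18 without acetate while its acetate counterpart was the highest of its group. The rise under GLUT3 loss was 1.48 ± 0.31 (log2, SE; 3.06-fold; limma adjusted p = 0.00168), and it was called in every alternative, with 1.12 or more.

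Hdac4 had 8.56, 6.83 and 6.97 TPM in WT, 11.1, 15.0 and 14.9 TPM in GLUT3KO, and 5.15, 9.47 and 8.30 TPM in ACLYKO. The acetate libraries had 5.52, 4.91 and 4.80 TPM in WT, 10.3, 10.0 and 9.27 TPM in GLUT3KO, and 6.67, 5.29 and 6.01 TPM in ACLYKO. It was higher in GLUT3KO than in WT without overlap in both media, by 0.79 ± 0.18 (log2, SE; limma adjusted p = 0.00368) and 0.84 ± 0.18 (limma adjusted p = 0.00262). Correction for length left 0.21 (adjusted p = 0.48) and 0.48 (adjusted p = 0.0889).

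Hdac7, the class IIa gene best known in thymocytes and T cells, followed another course. It had 29.0, 25.1 and 27.0 TPM in WT, 29.2, 25.0 and 29.0 TPM in GLUT3KO, and 12.2, 34.4 and 32.4 TPM in ACLYKO. In the presence of acetate it had 29.4, 29.2 and 29.4 TPM in WT, 18.1, 20.8 and 20.2 TPM in GLUT3KO, and 65.0, 45.6 and 49.6 TPM in ACLYKO. The 3 ACLYKO libraries with acetate were the highest of all 18, and replicate 1 was the lowest without acetate and the highest with it. Acetate raised Hdac7 in ACLYKO by 1.11 ± 0.27 (log2, SE; 2.03-fold; limma adjusted p = 0.0113), a call lost when only the ACLYKO groups were fitted (adjusted p = 0.279). No member passed in that fit. In WT its change with acetate was 0.12 and in GLUT3KO -0.47, neither called. The acetate change in ACLYKO minus that in GLUT3KO was 1.58 ± 0.39 (limma adjusted p = 0.0289), the only one of 37 members called for that difference, beside 4.87% of all tested genes (3.81% higher, 1.06% lower). It is a comparison added after the values were seen, and it was not called with the replicate number as a block (adjusted p = 0.0974). Leaving out GLUT3KO replicate 1 or 3, any GLUT3KO acetate library, or ACLYKO acetate replicate 1 or 3 gave adjusted p of 0.0548 to 0.0815.

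Loss of ACLY raised Hdac6, a mainly cytoplasmic class IIb enzyme whose substrates include alpha-tubulin (chrX:7930116-7948047, GRCm38.p6). Hdac6 had 5.22, 3.96 and 4.05 TPM in WT, 5.26, 4.86 and 5.03 TPM in GLUT3KO, and 11.5, 10.7 and 9.28 TPM in ACLYKO. With acetate it had 4.51, 3.76 and 4.61 TPM in WT, 4.10, 3.68 and 4.31 TPM in GLUT3KO, and 11.3, 9.00 and 8.89 TPM in ACLYKO. Every ACLYKO library held more than every library of the other genotypes. The rise was 1.09 ± 0.14 without acetate (log2, SE; 2.38-fold; limma adjusted p = 7.188e-05) and 1.02 ± 0.14 with it (limma adjusted p = 0.000269). The second call held in every alternative tried, and the first in all but the fit of WT and ACLYKO alone (adjusted p = 0.0555).

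Of the class I genes, only Hdac2 was called. Hdac2 had 267.7, 201.9 and 206.0 TPM in WT, 207.7, 130.6 and 175.3 TPM in GLUT3KO, and 293.9, 165.0 and 150.0 TPM in ACLYKO. With acetate it had 165.1, 178.9 and 177.7 TPM in WT, 94.3, 99.3 and 102.8 TPM in GLUT3KO, and 203.5, 137.9 and 145.8 TPM in ACLYKO. The GLUT3KO acetate libraries were the 3 lowest of the 18. With acetate it was lower in GLUT3KO than in WT by -0.81 ± 0.24 (log2, SE; limma adjusted p = 0.0181), and acetate lowered it in GLUT3KO by -0.76 ± 0.24 (limma adjusted p = 0.0497). The second lay at the threshold and was lost with a pseudocount of 0.1 (adjusted p = 0.052), with median-ratio scaling (adjusted p = 0.149) and without any one of the compared libraries other than GLUT3KO replicate 2 (adjusted p of 0.109 to 0.203). The first was lost without WT acetate replicate 2 or 3 or GLUT3KO acetate replicate 1 (adjusted p of 0.0544 to 0.0584).

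The other class I genes, Hdac1, Hdac3 and Hdac8, and the class IIb gene Hdac10 were called in none of the 5 comparisons. Hdac3, the catalytic subunit of the NCoR and SMRT complexes, had group means between 47.1 and 54.9 TPM. Hdac1 had 139.6 ± 23.2 TPM in WT and 183.3 ± 2.50 TPM in WT with acetate (SD, n = 3), a log2 change of 0.40 (limma adjusted p = 0.204). In total 2 of 9 tested deacetylases rose with loss of GLUT3, 1 rose with loss of ACLY, 1 fell with acetate in GLUT3KO and 1 rose with acetate in ACLYKO. The shares were 22.2%, 11.1%, 11.1% and 11.1%, beside 33.4%, 19.1%, 12.7% and 17.3% of all tested genes. Among 9 genes a single call is 11.1%, so no difference from other genes is read from these shares.

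**Figure D3:**
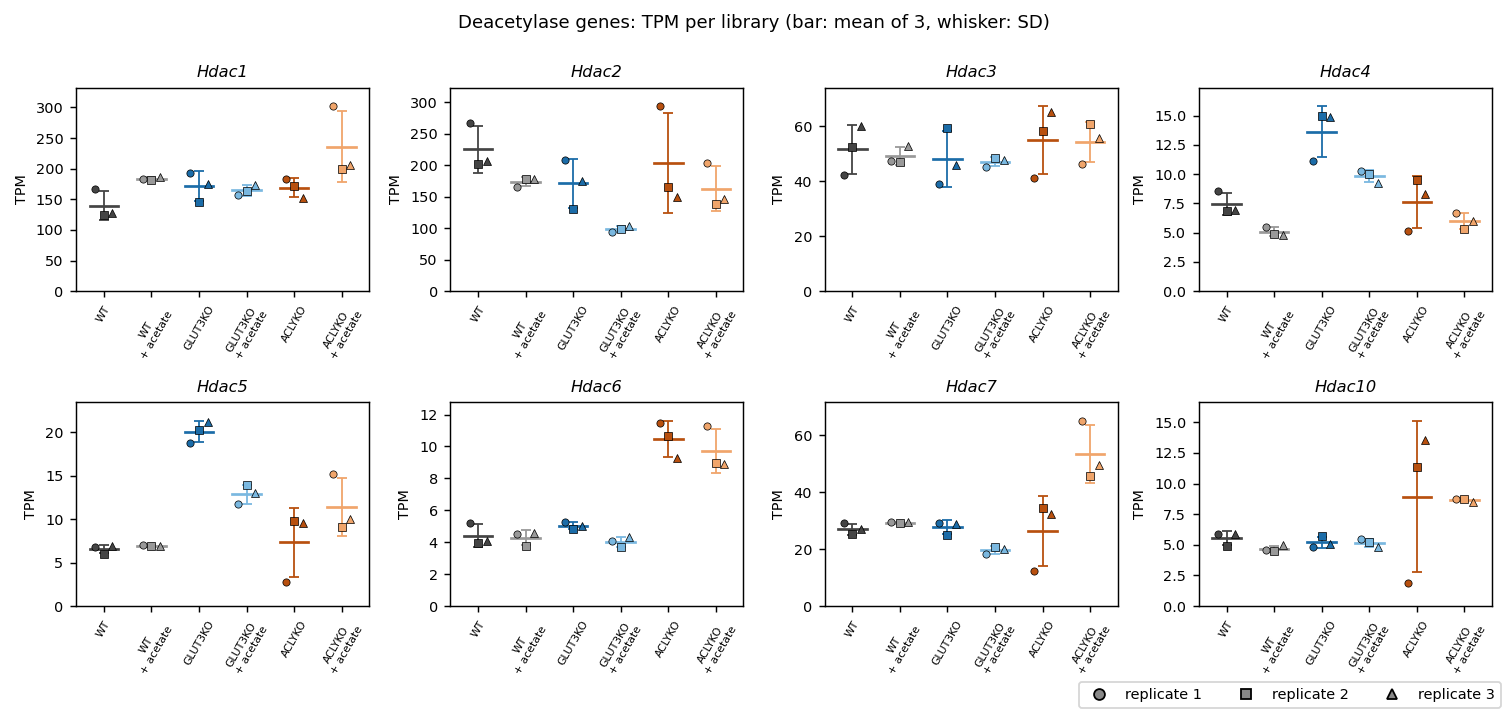
TPM of 8 deacetylase genes in each library (vertical axis, linear from 0) by group (horizontal axis), with the marker shape giving the replicate number, the bar the mean of 3 and the whisker the SD. Hdac6 lies at 8.89 TPM or above in ACLYKO and at 5.26 TPM or below elsewhere, and Hdac7 lies between 45.6 and 65.0 TPM in ACLYKO with acetate.

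Sirt1 encodes the nuclear NAD+-dependent deacetylase that acts on histones and on transcription factors (chr10:63319005-63339035, GRCm38.p6). Sirt1 had 33.9, 34.4 and 31.9 TPM in WT, 38.9, 48.0 and 42.9 TPM in GLUT3KO, and 36.9, 47.5 and 50.2 TPM in ACLYKO. In acetate medium the levels were 17.6, 17.4 and 19.2 TPM in WT, 27.7, 27.0 and 25.2 TPM in GLUT3KO, and 24.6, 23.2 and 23.8 TPM in ACLYKO. All 9 acetate libraries were below all 9 untreated ones. Acetate lowered Sirt1 by -0.85 ± 0.13 in WT (log2, SE; 1.85-fold; limma adjusted p = 0.000847), by -0.68 ± 0.13 in GLUT3KO (limma adjusted p = 0.0028) and by -0.87 ± 0.13 in ACLYKO (limma adjusted p = 0.000201). The WT call held in every alternative. That in GLUT3KO was lost with correction for GC content and length (-0.44, adjusted p = 0.107), and that in ACLYKO when only the ACLYKO groups were fitted (adjusted p = 0.0791).

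Without acetate Sirt1 was the only member that rose in both losses, by 0.36 ± 0.13 in GLUT3KO (log2, SE; limma adjusted p = 0.0391) and 0.40 ± 0.13 in ACLYKO (limma adjusted p = 0.0355), both against the same WT libraries. These changes were small and near the threshold. The first was lost with median-ratio scaling (0.15, adjusted p = 0.278), with correction for length (0.07, adjusted p = 0.684) and without any one of WT replicates 1, 2 or 3 or GLUT3KO replicates 2 or 3 (adjusted p of 0.0561 to 0.126). The second was lost with correction for length (0.28, adjusted p = 0.0849), for GC content and length (0.08, adjusted p = 0.785), and without any one of WT replicates 1, 2 or 3 or ACLYKO replicates 2 or 3 (adjusted p of 0.0547 to 0.12). Over all 17 alternatives for each, 11 missed the threshold for GLUT3 loss and 8 for ACLY loss. The change under GLUT3 loss went down to 0.0176 and its limma adjusted p up to 0.95. With acetate in both groups, Sirt1 was 0.54 ± 0.13 higher in GLUT3KO than in WT (limma adjusted p = 0.00431), a call lost with correction for GC content and length (0.31, adjusted p = 0.197).

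Sirt2, a mainly cytoplasmic deacetylase that also acts on histone H4 in mitosis, was the most abundant sirtuin transcript per length. Sirt2 had 162.9, 115.9 and 125.1 TPM in WT, 238.6, 204.0 and 246.2 TPM in GLUT3KO, and 52.1, 123.5 and 109.5 TPM in ACLYKO. Acetate-treated libraries had 169.5, 158.4 and 154.0 TPM in WT, 273.0, 270.01 and 253.9 TPM in GLUT3KO, and 196.9, 159.7 and 154.4 TPM in ACLYKO. GLUT3KO was above WT without overlap in both media, and in ACLYKO the acetate libraries were all above the untreated ones. The change was 0.78 ± 0.25 with loss of GLUT3 (log2, SE; limma adjusted p = 0.0248), 0.72 ± 0.25 in the presence of acetate (limma adjusted p = 0.0372) and 0.92 ± 0.25 with acetate in ACLYKO (limma adjusted p = 0.0177). The first was lost without any one of WT replicates 2 or 3 or GLUT3KO replicates 1 or 3 (adjusted p of 0.0692 to 0.0991), the second without any one of its 6 libraries (adjusted p of 0.0693 to 0.101), and the third without ACLYKO acetate replicate 1 (0.81, adjusted p = 0.0658) and when only the ACLYKO groups were fitted (adjusted p = 0.294). A noncoding gene, Gm19897, with a mean of 1.35 TPM, overlaps Sirt2 on the other strand.

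The mitochondrial sirtuins Sirt3, Sirt4 and Sirt5 act on metabolic enzymes, not on histones in chromatin. Sirt3, the main mitochondrial deacetylase, had 2.34, 4.47 and 4.57 TPM in WT, 1.80, 4.12 and 3.32 TPM in GLUT3KO, and 0.385, 2.51 and 3.51 TPM in ACLYKO. With acetate the values were 8.76, 7.69 and 8.82 TPM in WT, 6.19, 8.16 and 8.07 TPM in GLUT3KO, and 5.72, 8.79 and 7.15 TPM in ACLYKO. Each of the 9 acetate libraries was above each of the 9 untreated ones, and replicate 1 was the lowest of each untreated group. Acetate raised Sirt3 in ACLYKO by 1.54 ± 0.36 (log2, SE; 3.38-fold; limma adjusted p = 0.00771), a call lost when only the ACLYKO groups were fitted (adjusted p = 0.177). The lowest value, in ACLYKO replicate 1, came from 5 reads. The changes of 1.01 ± 0.36 in WT (limma adjusted p = 0.118) and 1.09 ± 0.36 in GLUT3KO (limma adjusted p = 0.0588) were not called, the latter passing with the replicate block (adjusted p = 0.0309). Sirt3 and Ric8a, which had a mean of 106.5 TPM, overlap by 69 bases on opposite strands.

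Sirt4 had 2.04 to 2.22 TPM in WT and 0.375 to 1.13 TPM in GLUT3KO, with no overlap, and was the 1 member that fell with loss of GLUT3, by -0.82 ± 0.21 (log2, SE; limma adjusted p = 0.00755). That call held in every alternative. At the depth of these libraries 1 read of a gene with 2000 bases of exons is worth 0.0342 to 0.0719 TPM, so the lowest Sirt4 values rest on few reads. Sirt5, which removes succinyl and malonyl groups, had 3.62 to 3.93 TPM in WT and 1.17 to 2.79 TPM in ACLYKO. It fell with loss of ACLY by -0.60 ± 0.18 (log2, SE; limma adjusted p = 0.0278), and was raised by acetate in ACLYKO to between 4.50 and 5.15 TPM, by 0.89 ± 0.18 (limma adjusted p = 0.00242). Both were lost when only the groups compared were fitted (adjusted p of 0.34 and 0.168), and the fall was lost without WT replicate 2 or 3 (adjusted p of 0.0678 and 0.0904).

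The chromatin sirtuins Sirt6 and Sirt7, of which Sirt7 is nucleolar, were called in none of the 5 comparisons. In ACLYKO replicate 1, Sirt6 had 6.67 TPM and Sirt7 7.42 TPM, the lowest value of each gene over the 18 libraries. Altogether the sirtuins held 4 of the 7 members called with acetate in ACLYKO, Sirt2, Sirt3 and Sirt5 upward and Sirt1 downward. That is 57.1% of the family, beside 17.3% of all tested genes (11.7% higher, 5.6% lower). All 4 calls were lost when only the ACLYKO groups were fitted. That fit called no member of any family, so the loss is not particular to the sirtuins. The share of all tested genes it called is not given here. The family's shares were 42.9% and 28.6% for GLUT3 and ACLY loss, beside 33.4% and 19.1%. For acetate in WT and GLUT3KO they were 14.3% and 14.3%, beside 6.5% and 12.7%.

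**Figure D4:**
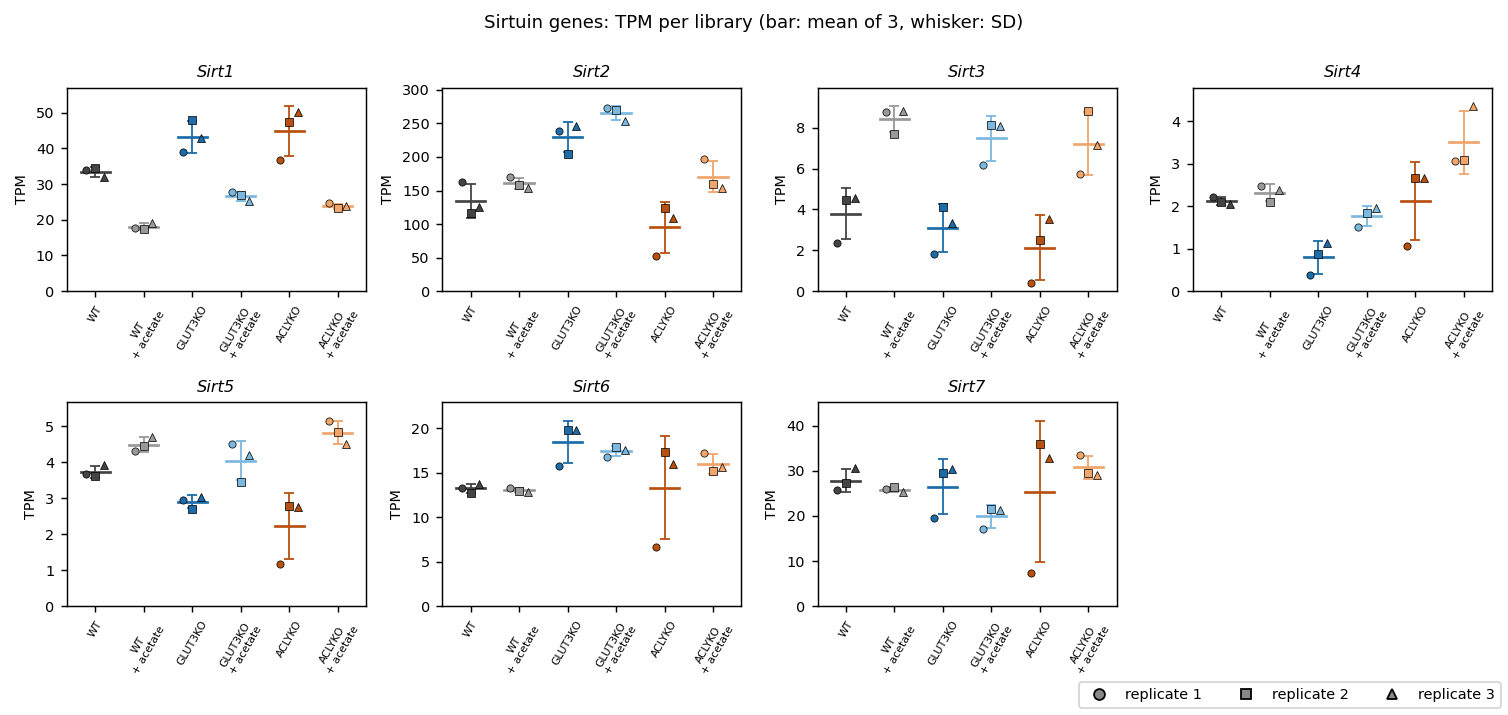
TPM of the 7 sirtuin genes in each library (vertical axis, linear from 0) by group (horizontal axis), with the marker shape giving the replicate number, the bar the mean of 3 and the whisker the SD. Sirt1 lies at 27.7 TPM or below in the acetate libraries and at 31.9 TPM or above without acetate, while Sirt3 lies at 5.72 TPM or above with acetate and at 4.57 TPM or below without it.

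Brpf3, a scaffold of the HBO1 and MOZ acetyltransferase complexes with a bromodomain, PHD fingers and a PWWP domain, was the most changed reader (chr17:28801126-28838789, GRCm38.p6). Brpf3 had 7.80, 4.40 and 4.96 TPM in WT, 13.9, 10.7 and 14.6 TPM in GLUT3KO, and 6.88, 7.46 and 5.71 TPM in ACLYKO. The acetate libraries had 1.85, 2.13 and 2.15 TPM in WT, 4.79, 5.33 and 4.15 TPM in GLUT3KO, and 4.82, 2.74 and 3.16 TPM in ACLYKO. Within each genotype the acetate libraries lay below the untreated ones without overlap, and GLUT3KO lay above WT without overlap in both media. Brpf3 fell with acetate by -1.11 ± 0.20 in WT (log2, SE; 2.80-fold; limma adjusted p = 0.00418), by -1.28 ± 0.20 in GLUT3KO (limma adjusted p = 0.000892) and by -0.77 ± 0.20 in ACLYKO (limma adjusted p = 0.0163). The calls in WT and GLUT3KO held in every alternative. The call in ACLYKO was lost when only its groups were fitted (adjusted p = 0.18), where no member passed. It was also lost without ACLYKO acetate replicate 2 (adjusted p = 0.0817) or 3 (adjusted p = 0.0671). Loss of GLUT3 raised Brpf3 by 1.09 ± 0.20 without acetate (limma adjusted p = 0.000758) and 0.92 ± 0.20 with it (limma adjusted p = 0.00295), calls that also held throughout.

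Brd2, a BET protein that binds acetylated histone H4, had 151.3, 100.9 and 99.2 TPM in WT, 214.1, 126.3 and 168.1 TPM in GLUT3KO, and 216.4, 170.8 and 146.9 TPM in ACLYKO. In the presence of acetate it had 91.5, 102.3 and 98.8 TPM in WT, 101.3, 101.4 and 91.1 TPM in GLUT3KO, and 143.4, 91.7 and 90.1 TPM in ACLYKO. In both knockouts the acetate libraries were below all untreated ones of the same genotype, while in WT the groups overlapped. Acetate lowered Brd2 by -0.75 ± 0.23 in GLUT3KO (log2, SE; limma adjusted p = 0.0449) and by -0.73 ± 0.23 in ACLYKO (limma adjusted p = 0.0419), both near the threshold. Median-ratio scaling ended the first (-0.64, adjusted p = 0.114), as did leaving out any compared library other than GLUT3KO replicate 2 (adjusted p of 0.0964 to 0.201), and leaving out ACLYKO replicate 1 or 2 or ACLYKO acetate replicate 2 or 3 ended the second (adjusted p of 0.062 to 0.163). Over all 17 alternatives for each, 10 missed the threshold in GLUT3KO and 6 in ACLYKO, the latter with limma adjusted p up to 0.273. Brd2 and H2-DMa, whose mean was 1.64 TPM, overlap by 3122 bases on opposite strands.

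Brd1, the BRPF2 scaffold of the HBO1 complex, had 34.8, 24.3 and 25.3 TPM in WT, 47.3, 31.7 and 42.9 TPM in GLUT3KO, and 26.0, 24.7 and 19.4 TPM in ACLYKO. With acetate it had 17.96, 18.43 and 18.85 TPM in WT, 27.7, 26.3 and 24.3 TPM in GLUT3KO, and 23.4, 16.2 and 16.7 TPM in ACLYKO. The untreated WT and GLUT3KO libraries overlapped, since GLUT3KO replicate 2 was below WT replicate 1. Brd1 rose with loss of GLUT3 by 0.51 ± 0.19 (log2, SE; limma adjusted p = 0.0453) and fell with acetate in GLUT3KO by -0.60 ± 0.19 (limma adjusted p = 0.0468). After correction for length the first was -0.01 (adjusted p = 0.958), opposite in sign, and it was lost without any one of WT replicates 2 or 3 or GLUT3KO replicates 1 or 3 (adjusted p of 0.134 to 0.178). The second was -0.27 without the 5 libraries, with GLUT3KO replicate 2, the lowest of its group, as the 1 untreated library, and it was lost on leaving out any compared library other than GLUT3KO replicate 2 (adjusted p of 0.0876 to 0.193). Over all 17 alternatives, 12 missed the threshold for this second change.

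All 8 readers had a negative change with acetate in each genotype, with medians of -0.67 in WT, -0.81 in GLUT3KO and -0.74 in ACLYKO on the log2 scale. Over all 14229 tested genes the change was positive for 6809, 6290 and 8199. Of the readers 1, 3 and 2 were called. These are 12.5%, 37.5% and 25% of the family, beside 6.5%, 12.7% and 17.3% of all tested genes. The sign was the same for all 8 under both other scalings and under correction for length or for GC content and length, and without the 5 libraries it was positive for 2 readers in WT and 1 in GLUT3KO, the latter against GLUT3KO replicate 2 alone. Leaving out WT replicate 1 alone made it positive for 2 in WT, with a median of -0.39, and leaving out ACLYKO replicate 1 alone for 1 in ACLYKO, with a median of -0.25. WT replicate 1 was the highest WT library for all 8 readers. Brd7, a subunit of the PBAF remodeller, had 94.3, 38.7 and 41.8 TPM in untreated WT and 173.8, 51.9 and 40.4 TPM in ACLYKO. Brd7 had changes with acetate of -0.78, -1.17 and -0.80 in the 3 genotypes, none of them called. Brd8, of the NuA4/TIP60 complex, had changes of -0.86, -0.87 and -0.75 with acetate, not called in the fit without a block and called in all 3 genotypes with the replicate block (limma adjusted p of 0.0404, 0.0232 and 0.0316). Brd8 overlaps Kif20a by 240 bases on opposite strands. Brd9, of the noncanonical BAF complex, was 1.17 ± 0.36 higher in ACLYKO than in WT with acetate (limma adjusted p = 0.0444), at 15.3 to 27.9 TPM against 7.35 to 9.58 TPM, and that call was lost without ACLYKO acetate replicate 1 (0.92, adjusted p = 0.212) or 3 (adjusted p = 0.0753), or any WT acetate replicate (adjusted p of 0.071 to 0.139). Over all 17 alternatives for that comparison, 10 missed the threshold. Without acetate, Brd9 and Brd2 were 1.04 and 0.61 higher in ACLYKO than in WT, not called in the fit without a block and called with it (limma adjusted p of 0.0174 and 0.0255). Brd3 and Brpf1 were called in none of the comparisons of a loss with WT or of acetate.

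**Figure D5:**
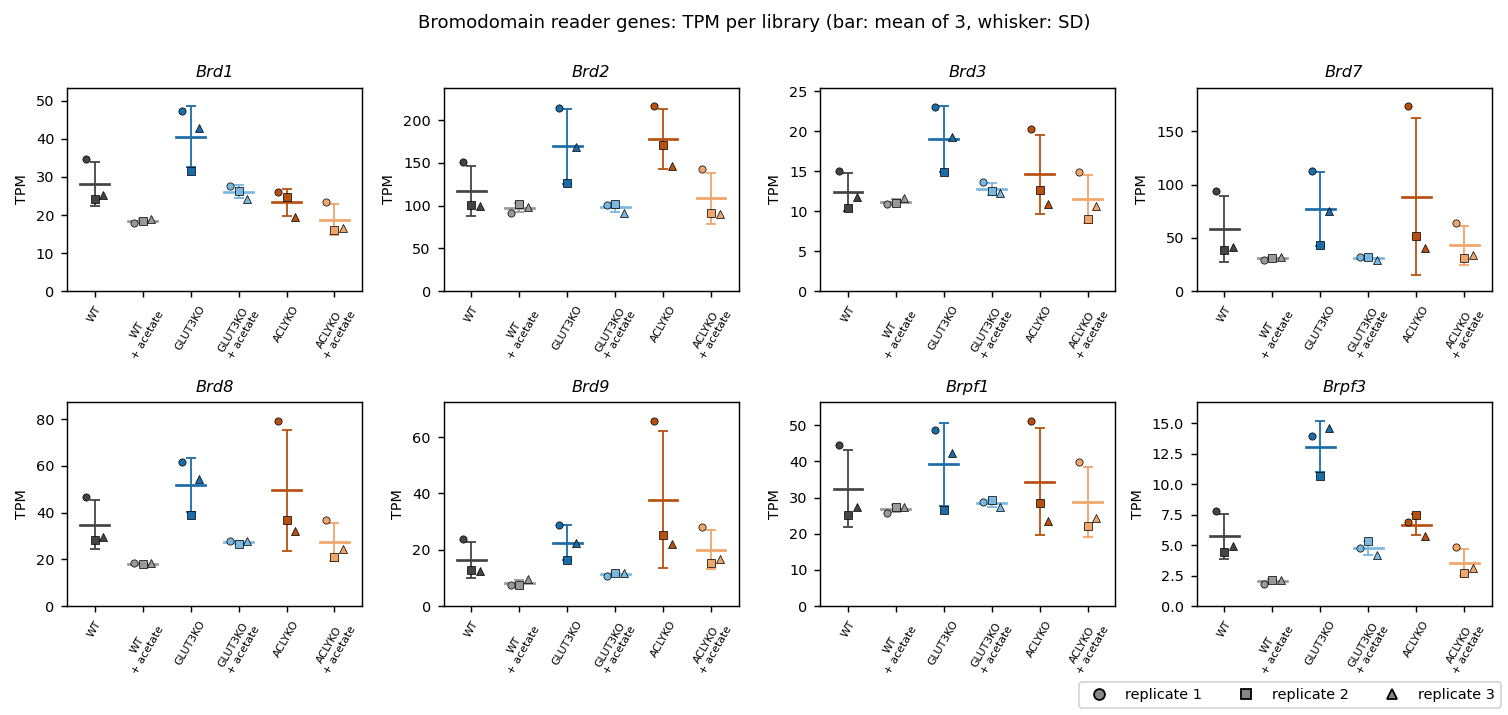
TPM of the 8 bromodomain reader genes in each library (vertical axis, linear from 0) by group (horizontal axis), with the marker shape giving the replicate number, the bar the mean of 3 and the whisker the SD. Brpf3 lies at 5.33 TPM or below with acetate, and Brd7 shows replicate 1 of the untreated groups above the other replicates, at 94.3 TPM in WT and 173.8 TPM in ACLYKO.

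The losses were also compared in the presence of acetate. GLUT3KO then had 7 members higher and 1 lower than WT, beside 30.4% of all tested genes called (20.9% higher, 9.5% lower), and ACLYKO had 4 higher and none lower, beside 13.5% (11.5% higher, 1.98% lower). The first count was 5 without any one of WT acetate replicates 2 or 3 or GLUT3KO acetate replicate 1. By libraries that do not overlap, 18 lay higher and 6 lower in GLUT3KO, beside 41.4% and 29.9% of all tested genes, and 19 higher and none lower in ACLYKO, beside 38.9% and 15.2%. Median-ratio scaling moved the higher share of all calls from 68.8% to 56.7% and from 85.4% to 62%. Directly compared without acetate, GLUT3KO had 10 members higher and 3 lower than ACLYKO, beside 40.4% of all tested genes called (25.2% higher, 15.2% lower). The same numbers, 10 and 3, did not overlap, beside 25.7% and 15.2%. Sirt2 was 1.35 ± 0.25 higher in GLUT3KO (log2, SE; limma adjusted p = 0.000478) and Hdac6 -0.92 ± 0.14 lower (limma adjusted p = 8.144e-05). Kat2b was 2.28 ± 0.24 higher in that comparison (limma adjusted p = 2.752e-06), and the others higher in GLUT3KO were Hdac5, Brpf3, Ep300, Hdac4, Ncoa2, Brd1, Kat5 and Kat7, with Sirt4 and Hat1 lower. The acetate change in GLUT3KO minus that in WT was called for no member by limma, with 0 at an unadjusted p under 0.05, beside 0.773% of all tested genes called (0.225% higher, 0.548% lower). For ACLYKO minus WT limma also called no member, with 2 at an unadjusted p under 0.05 (Hdac7 and Sirt5), beside 1.34% of all tested genes (0.78% higher, 0.562% lower). A call in 1 genotype and not in another is not shown to differ between them. Only for Hdac7, between ACLYKO and GLUT3KO, was such a difference called. That comparison was added after the values were seen. Its call was lost with the replicate number as a block and missed the threshold in 10 of 23 alternatives.

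With acetate in GLUT3KO the number of calls depended most on the fit. Same-numbered libraries of these groups correlated only weakly in their deviations from group means, at 0.147 to 0.194. GLUT3KO replicate 1 correlated more with WT replicate 1, at 0.721. Taking the replicate number as a block gave 15 members called, 2 higher and 13 lower, in place of 7. Beside those named above, the block added Sirt4 upward and Ncoa2, Kat6a, Kat6b and Hdac8 downward (limma adjusted p of 0.0276 to 0.0468). Leaving out any one of the 6 libraries except GLUT3KO replicate 2 gave 2. Leaving out GLUT3KO replicate 2 gave 12. Under GLUT3 loss the count was 15 without WT replicate 1 and 6 without any one of WT replicates 2 or 3 or GLUT3KO replicate 3. Under ACLY loss it was 9 without ACLYKO replicate 1, 2 without WT replicate 2 and 3 without WT replicate 3. With the 5 libraries all left out, 22 members were called under ACLY loss, and 19 and 21 with acetate in WT and ACLYKO. The comparisons with untreated GLUT3KO then hold 1 GLUT3KO library, and their counts are not given. The share of all tested genes called under these alternatives is not given here. These counts therefore do not show whether the members changed more often than other genes.

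The partners of these enzymes were counted in 3 wider lists, made of subunits of acetyltransferase complexes (51 tested), subunits of deacetylase complexes (44 of 46 tested) and other acetyl-lysine readers (29 of 33 tested). Under GLUT3 loss 18 acetyltransferase complex subunits rose and 4 fell, 13 deacetylase complex subunits rose and 1 fell, and 14 other readers rose and none fell. Those are 43.1%, 31.8% and 48.3% of each list, beside 33.4% of all tested genes (24.9% higher, 8.47% lower). The median log2 changes were 0.31, 0.47 and 0.70, beside 0.17 over all tested genes. Clock, the circadian transcription factor, rose from 6.00 ± 1.32 TPM to 20.0 ± 2.53 TPM (SD, n = 3), and Ing4, the PHD finger subunit of the HBO1 complex, from 31.2 ± 5.93 TPM to 82.7 ± 9.05 TPM. Morf4l1, the MRG15 subunit of TIP60 and Sin3 complexes, rose from 162.6 ± 18.3 TPM to 391.1 ± 9.25 TPM. Rcor1, the scaffold of the CoREST complex, rose by 0.93 ± 0.12 with loss of GLUT3 (log2, SE; limma adjusted p = 2.477e-05) and fell by -0.48 ± 0.12 with loss of ACLY (limma adjusted p = 0.00973). Under ACLY loss 8 acetyltransferase complex subunits rose and 2 fell, among them the SAGA subunits Usp22 (1.08 ± 0.13, limma adjusted p = 3.786e-05), Sgf29 (1.03 ± 0.15, limma adjusted p = 0.000314) and Atxn7 (0.92 ± 0.16, limma adjusted p = 0.00108), all upward. Of the deacetylase complex subunits 3 rose and 2 fell, and of the other readers 6 rose and none fell. The shares called were 19.6%, 11.4% and 20.7%, near or below the 19.1% of all tested genes.

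With acetate, Epc1, a scaffold of the TIP60 complex, and Ing5, of the HBO1 and MOZ complexes, fell in all 3 genotypes. Epc1 had 20.5 ± 5.72 TPM in WT and 7.85 ± 0.70 TPM with acetate (SD, n = 3), and its changes were -1.26 ± 0.25 in WT, -1.16 ± 0.25 in GLUT3KO and -1.53 ± 0.25 in ACLYKO (log2, SE; limma adjusted p = 0.00708, 0.00741 and 0.000583). The changes of Ing5 were -0.56 ± 0.12, -0.53 ± 0.12 and -0.78 ± 0.12 (limma adjusted p = 0.0103, 0.0089 and 0.000313). Pbrm1, the polybromo subunit of PBAF, fell in all 3 genotypes as well, by -0.69, -0.83 and -0.68 (limma adjusted p = 0.0367, 0.0089 and 0.0192). Rcor2 rose with acetate in WT by 1.47 ± 0.20 and in ACLYKO by 1.56 ± 0.20 (limma adjusted p = 0.000479 and 8.354e-05). Acetate raised 1 and lowered 3 acetyltransferase complex subunits in WT, raised 1 and lowered 7 in GLUT3KO, and lowered 5 in ACLYKO. Of the deacetylase complex subunits 2 rose in WT, 2 fell in GLUT3KO, and 5 rose and 1 fell in ACLYKO. Of the other readers 2 fell in WT, 8 fell in GLUT3KO, and 1 rose and 2 fell in ACLYKO. In WT, GLUT3KO and ACLYKO in turn, 6.5%, 12.7% and 17.3% of all tested genes were called. The shares were 7.84%, 15.7% and 9.8% for the acetyltransferase complex subunits, 4.55%, 4.55% and 13.6% for the deacetylase complex subunits, and 6.9%, 27.6% and 10.3% for the other readers.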

How the data were processed

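RNA of 18 libraries was sequenced as single ends of 75 nt after stranded library preparation from 500 ng of total RNA, per the labels' protocols. Per the submitters' processing notes, the tools included STAR 2.7.2b, featureCounts 1.6.4 of Subread, bcl2fastq 2.20.0.422, cutadapt and DESeq2, with the build GRCm38.p6. Neither the role of each nor the strand setting is stated there. The deposited table holds TPM made by the authors with decimal commas, an other unit than counts, each column summing to 1000000, and the exon length of each gene. TPM times length was a whole multiple of 1 step for 100% of values under 500 reads (tolerance 0.01 reads), which gave the reads per library.

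Group means of log2(TPM + 1) over all 18 libraries were fitted in R 4.3.3 by limma 3.58.1 (eBayes with trend and robust after lmFit and contrasts.fit), for genes with at least 1 TPM in at least 3 libraries, with Benjamini-Hochberg adjustment over 14229 genes in each of 11 comparisons and a threshold of 0.05. The code was checked on simulated data. Alternatives were a pseudocount of 0.1, no filter, a filter of 5 TPM, median-ratio scaling, fits of only the groups compared, limma-voom on recovered reads, a replicate block, each library's score on the component within groups as a covariate, corrections for exon length alone or with GC content, and fits without certain libraries. The GC correction and the comparison of the acetate change between ACLYKO and GLUT3KO were chosen after seeing the data. GC content was known for 95.9% of tested genes. The alternatives named beside a call are not always all of those in which it missed the threshold.

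Per-library values are given for up to 16 members, those called in at least 1 of 5 comparisons with libraries that do not overlap and a mean of at least 5 TPM in 1 group, in order of their largest change. Up to 3 genes of each wider list are named per comparison, by smallest adjusted p. Kat6a and Brd7, shown per library for their spread, were picked after their values were seen. The members and lists were chosen with earlier results of these data known. Replicate numbers come from the labels, which do not say what they share. Deviations from group means correlated above 0.1 in all 3 pairs for acetate in WT (0.12 to 0.13), GLUT3KO (0.147 to 0.194) and ACLYKO (0.265 to 0.548) and for ACLYKO against WT without acetate (0.285 to 0.577), where the numbers were taken to pair the libraries. They did not for GLUT3KO against WT (-0.354 to 0.721). Yet WT replicate 1 and ACLYKO acetate replicate 1, which share neither genotype nor medium, correlated at 0.801. Such correlations alone therefore do not show that libraries were paired, and the main fit has no block.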

Additional observations from a re-analysis of the deposited data

Results flagged for a closer look

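The acetate change of Hdac7 differed between ACLYKO and GLUT3KO by 1.58 ± 0.39 on the log2 scale (limma adjusted p = 0.0289), by a test of the difference itself. Hdac7 went from 26.3 ± 12.3 to 53.4 ± 10.2 TPM with acetate in ACLYKO and from 27.7 ± 2.36 to 19.7 ± 1.38 TPM in GLUT3KO (SD, n = 3). ACLYKO replicate 1, with the highest score on the component within groups, had 12.2 TPM without acetate. Without it the difference was called for 3 members, and with the replicate number as a block it was not called (adjusted p = 0.0974). Slc48a1 shares 32 bases with Hdac7 on the other strand.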

How the results depend on the processing

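Of 57 calls for members over 11 comparisons, 15 held in every alternative, and of 971 alternative values 783 kept their direction and their side of the threshold, 185 kept the direction but missed the threshold and 3 turned sign. Those 3 were Ncoa2 under GLUT3 loss, -0.0927 with correction for length and -0.0825 with correction for GC content and length, and Brd1 under GLUT3 loss, -0.0094 with correction for length; the cause was not tested. The counts of members called ranged, on leaving out each library in turn, from 6 to 15 under GLUT3 loss, 2 to 9 under ACLY loss, 2 to 2 with acetate in WT, 2 to 12 in GLUT3KO and 5 to 9 in ACLYKO, 5 to 7 and 3 to 4 for the losses with acetate, 11 to 16 for GLUT3KO against ACLYKO, 0 for both differences of the acetate change from WT, and 0 to 3 for that between ACLYKO and GLUT3KO. In the order GLUT3 loss, ACLY loss, acetate in WT, GLUT3KO and ACLYKO, GLUT3 loss and ACLY loss with acetate, and GLUT3KO against ACLYKO, the score covariate gave 25, 16, 17, 25, 19, 17, 16 and 21 called, and leaving out the 5 libraries named above, with 1 untreated GLUT3KO library left, gave 23, 22, 19, 21, 21, 20, 17 and 21. Both gave 1 for each difference of the acetate change from WT, and 5 and 3 for ACLYKO minus GLUT3KO. With the score covariate, the shares of all tested genes called, in the order above, were 58.4%, 48.1%, 28.6%, 45.8%, 46.6%, 53.9%, 39.2% and 62.2%. The members' shares were 67.6%, 43.2%, 45.9%, 67.6%, 51.4%, 45.9%, 43.2% and 56.8%. Calls thus rose for all tested genes as well as for the members. The score comes from the deviations of these same libraries from their group means. It therefore cannot alter the log2 changes, and it takes out 63.55% of the variance within groups by construction. The rise in calls is no support for them, and among the alternative values above this fit could not turn a sign. For the other counts in this paragraph the share of all tested genes called is not given. Those counts do not show whether members changed more often than other genes. Fits of only the groups compared gave 0 for ACLY loss, 4, 17 and 0 for acetate in WT, GLUT3KO and ACLYKO, 20 and 7 for the losses with acetate, 3 for GLUT3KO against ACLYKO, 1 for GLUT3KO minus WT and 0 for ACLYKO minus GLUT3KO. Correction for length gave 8 for ACLY loss, 6 for acetate in WT and 0 for ACLYKO minus GLUT3KO, and correction for GC content and length gave 7 for acetate in WT, 11 for acetate in ACLYKO and 2 for ACLYKO minus GLUT3KO. Median-ratio scaling and voom each gave 4 for acetate in WT, and no filter gave 2 for acetate in GLUT3KO and 2 for ACLYKO minus GLUT3KO. The replicate block gave 15 for acetate in GLUT3KO and 0 for ACLYKO minus GLUT3KO. Among the comparisons in which the numbers were taken to pair the libraries, the block also added a call for Brd8 with acetate in WT. It added calls for Sirt4, Crebbp and Brd8 with acetate in ACLYKO and for Brd9 and Brd2 under ACLY loss. It ended no other member's call there than that of Ncoa1 with acetate in GLUT3KO. Depth limits Hdac9, Hdac11, Sirt3, Sirt4, Sirt5 and Hdac10 most, whose lowest libraries held 0, 2, 5, 11, 30 and 42 reads.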
